A study of Homo sapiens with 4 samples.

Results

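m6A marks on the transcripts of long zinc finger and nuclear factor genes were examined in MDA-MB-231, a human cell line derived from triple negative breast cancer. The genes were the zinc finger homeobox genes ZFHX2, ZFHX3 and ZFHX4, the HIVEP zinc finger genes HIVEP1, HIVEP2 and HIVEP3, and the nuclear factor genes ANKRD11, ZC3H4 and NRDE2. These 9 genes were chosen by name, several of them because they stood among the genes with the most peaks, out of 10140 gene IDs in the list of m6A peaks. A peak was assigned to a gene by its Ensembl ID. Of the 9 genes, 8 had a listed peak, and together they held 81 of the 20261 peaks.

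The list came from m6A-seq of poly(A) RNA, in which fragmented RNA is pulled down with an anti-m6A antibody (IP) and set against RNA that was not pulled down (input). There were 2 IP and 2 input libraries, all from cells labelled shNS, the name of a control in the study, with no other treatment named. In the labels of the IP libraries the treatment reads YTHDC1, but the titles and the protocol are those of m6A-seq. The list holds 1 score per peak for all 4 libraries together, so no spread between replicates, read depth or expression level was available. All values below are descriptions of this 1 list and no test was made, since the genes were chosen with their peak counts known. All positions are on hg38 as deposited, counted from 1.

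N6-methyladenosine is deposited on mRNA by the METTL3 and METTL14 methyltransferase within RRACH sequences. It is known to be common in long internal exons and near stop codons, and it is bound by reader proteins such as YTHDC1. ZFHX proteins carry many zinc fingers together with homeodomains. HIVEP proteins, also called Schnurri, bind DNA through paired zinc fingers, and the fly Schnurri protein is a cofactor of SMAD signalling. ANKRD11 is an ankyrin repeat protein of chromatin that recruits histone deacetylases. ZC3H4 acts with WDR82 to end unproductive transcription, and NRDE2 binds the exosome helicase MTREX and restrains nuclear RNA decay.

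Peaks were numerous on 5 of the genes. ZFHX3 had 17 peaks, ANKRD11 had 14, ZFHX2 and NRDE2 had 13 each and HIVEP3 had 12. HIVEP2 had 6 peaks and ZC3H4 had 5. The list is unequal between strands, with 14648 peaks on the minus and 5613 on the plus strand, so genes were set against others of their own strand. These 7 lie on the minus strand, where a gene in the list had a median of 2 peaks and 2.21 ± 1.59 peaks (mean ± SD over 6624 genes). At least 5 peaks were listed for 7.55% of minus-strand genes, and at least 12 for 13 genes or 0.196%, of which 5 are described here. This share follows from how the genes were chosen.

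ZFHX4 and HIVEP1 had the fewest peaks of these genes. ZFHX4, on the plus strand of chromosome 8, had 1 peak of 121 bases (76863745 to 76863865) with a score of 0.00041. The peak lay 3416 bases upstream of the gene's 3′ end in RefSeq. On the plus strand only 36.6% of the 3516 genes had at least 2 peaks, so a single peak was the usual count there. A strongest score at least as small was found for 81.1% of them. HIVEP1 had no listed peak, and a listed peak was found for 40.8% of RefSeq protein-coding genes of the nuclear genome. This share is over both strands, so HIVEP1 was not set against genes of its own strand. Since the list gives no expression values, absence of a peak does not separate an unmethylated transcript from one that was weakly expressed. How far the unequal strands of the list bear on a missing peak was not tested.

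**Figure D1:**
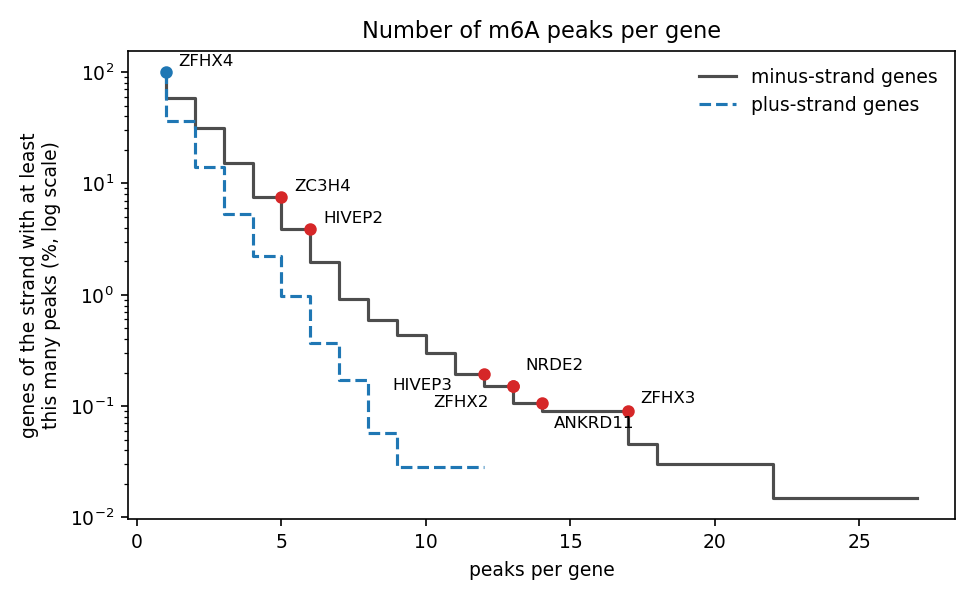
Share of genes on each strand (percent, log scale) that had at least a given number of m6A peaks. Points mark the 8 genes with a peak (red, minus strand; blue, plus strand). ZFHX3 with 17 peaks, ANKRD11, NRDE2, ZFHX2 and HIVEP3 lie in the far tail of the minus-strand curve, whereas ZC3H4 and HIVEP2 lie at 7.55% and 3.91%.

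The number of peaks and their strength gave different orders. Scores are taken as p-values for enrichment in IP over input, a smaller score being a stronger peak. Strength here means the score alone and not the degree of methylation, since read depth and expression were not available. The strongest peak of ZC3H4 was listed at 0, and that of ANKRD11 had a score of 1e-290. These were also the longest peaks of the genes described, at 2934 and 3000 bases. HIVEP2 (2e-95), NRDE2 (5e-57), HIVEP3 (6.3e-50), ZFHX3 (1.6e-38) and ZFHX2 (1.3e-21) followed. ZFHX2, with 13 peaks, thus had the weakest strongest peak of the minus-strand genes described. A score at least as small was reached by 50.6% of minus-strand genes for ZFHX2 and 39.4% for ZFHX3, but by 6.84% for ANKRD11 and 5.83% for ZC3H4.

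The median score of the whole list was 5.2e-08. Of the 80 peaks of the 7 minus-strand genes, 43 (53.8%) reached this median score, against 56.7% of all minus-strand peaks. Their median score was 1.9e-08, against 3.2e-10 for all minus-strand peaks, and their median length was 271 bases, against 240 bases. Pooled over the 7 genes, the median peak was thus weaker and somewhat longer than that of the strand, but the genes differed. Median scores were 1e-101 in ZC3H4 and 4e-39 in ANKRD11, stronger than that of the strand. They were weaker in ZFHX3 (5.8e-09), HIVEP2 (1.3e-08), ZFHX2 (3.3e-07), NRDE2 (1.1e-05) and HIVEP3 (2.3e-05). Median lengths in NRDE2 (211 bases) and HIVEP3 (196 bases) were below that of the strand. Counting only peaks that reached the median score, ANKRD11 kept 11 peaks, ZFHX3 10, ZFHX2 6 and NRDE2 5. HIVEP2 and ZC3H4 kept 4 each, and HIVEP3 kept 3 of its 12.

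ANKRD11 (ENSG00000167522, chromosome 16, 89267630 to 89490561) was the most heavily covered of the genes, with 9132 spliced peak bases. Only 4 of the 6624 minus-strand genes, ANKRD11 included, had at least as many. Peak bases add up over peaks, so this rank follows in part from how the genes were chosen. Its 3 longest peaks lay side by side. The strongest (89282658 to 89286046) was 3000 bases long in blocks of 8 and 2992 bases, the next (89281338 to 89282568, score 1e-152) was 1231 bases and the third (89279658 to 89280978, 2.5e-94) was 1321 bases. They were separated by gaps of 89 and 359 bases. Of the 80 peaks, 5 (6.25%) were longer than 1000 bases, 4 in ANKRD11 and 1 in ZC3H4, against 3.84% of all minus-strand peaks. From 89279658 to 89285649, a stretch of 5992 bases with no splice inside a peak, 92.5% of bases lay in peaks.

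ANKRD11 is known for 1 very long coding exon, but exon borders were not used here and the stretch was not matched to it. A stretch at least this long, made of blocks at most 500 bases apart, was found for 3 of 6624 minus-strand genes, ANKRD11 included. The median longest stretch was 416 bases. This rank too is not independent of how the genes were chosen, and the 500-base limit was set after seeing the values. Upstream of it lay 4 peaks of 210 to 451 bases (89286796 to 89288805) with scores from 3.2e-10 to 1e-103. A peak of 1081 bases (89299157 to 89300237, score 1e-135) lay further upstream, with one of 361 bases beside it, both inside the RefSeq span of LOC124903757. Another peak, at 89320133 to 89320313, lay inside that of LOC128462377, and no listed peak was matched to either of these genes. The 3 weakest peaks, of 151 to 181 bases, had scores of 6.6e-06, 1.7e-07 and 7.9e-08. The last peak, 240 bases from the 3′ end, was 211 bases long with a score of 6.3e-62.

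The first ANKRD11 peak (89490351 to 89490561, 211 bases, score 1.3e-13) reached exactly to the gene's 5′ end in RefSeq and covered all 50 of the first transcribed bases. Peaks covered part of such a window in 24.3% of the 4675 minus-strand genes with a RefSeq start on that strand. Among the 7 minus-strand genes described here, 1 had such a peak, ANKRD11. Counted by window, 1 of their 12 start windows was covered. The window holds GGAC, a 4-base form of the m6A consensus, at base 28 of the transcript. GGAC was in 3 of the 12 windows, the others being that of ZFHX2 and 1 of the 2 of HIVEP3, where no peak was listed. The ANKRD11 sequence is shown because this is the only place where a listed peak of these genes falls inside the sequence used here (RefSeq, GRCh38.p14, chr16:89490521-89490544, minus strand, 5′ to 3′, GGAC in capitals):
ANKRD11: ggtgcgcgatGGACcgagggcccc

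GGAC was found on the transcribed strand in 18.9% of the 35116 windows of 50 bases that begin a RefSeq gene, and on the opposite strand in 17.6%. A match describes the letters and does not locate a methylated base.

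ZC3H4 (ENSG00000130749, chromosome 19, 47064187 to 47113776) had few but long peaks. A single peak (47064965 to 47069120) of 2934 bases, in blocks of 29 and 2905 bases, made up 63.6% of its 4614 peak bases. Only 15 minus-strand genes had at least as many peak bases, although 500 had at least as many peaks. The 3′ edge of the peak was 778 bases from the 3′ end of the gene, and a last peak of 330 bases (47064247 to 47064576, score 1.3e-22) lay 388 bases downstream of it. Towards the 5′ end, a peak of 779 bases ran over 6 blocks of 35 to 223 bases (47084421 to 47093877, score 1e-101). Another of 420 bases ran over 3 blocks (47093937 to 47110950, score 1e-115). A weak peak of 151 bases (0.00085) lay 89 bases upstream of the longest one. The ZC3H4 peaks thus ran over splice junctions, with 4 of 5 in more than 1 block, against 18.8% of all minus-strand peaks.

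ZFHX3 (ENSG00000140836, chromosome 16, 72782885 to 73891930) showed the opposite form, 17 peaks in 1 block each of 121 to 661 bases. They fell into 2 groups. A group of 4 lay within 72950622 to 72959722, and 13 peaks lay within 72782945 to 72798269, with 152352 bases between the groups. In the second group 8 peaks of 151 to 571 bases lay between 72793320 and 72798269. Their scores ran from 0.0013 to 4e-31, so that strong and weak peaks were mixed along the stretch. The gaps between these 8 ran from 149 to 569 bases. Further 3′, past a gap of 4615 bases, came 3 close peaks with gaps of 89 and 119 bases, and then 2 weak ones (3.3e-06 and 6.9e-06), the last 60 bases from the 3′ end.

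The 3 close ZFHX3 peaks held the gene's strongest score and lay where the list also has ZFHX3-AS1, an antisense lncRNA on the plus strand. All 3 listed peaks of ZFHX3-AS1 shared from 359 to 448 bases with them, at least 99.8% of the shorter peak. The scores were 7.9e-27 and 7.9e-27, 2e-22 and 2e-22, and 1.6e-38 and 2e-39 for ZFHX3 and ZFHX3-AS1, respectively. The list does not say to which transcript these reads belong. Without them ZFHX3 had 14 peaks, 3973 peak bases and a strongest score of 4e-31.

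ZFHX2 (ENSG00000136367, chromosome 14, 23520857 to 23555952) had 13 peaks of 61 to 690 bases, with scores from 0.0015 to 1.3e-21, and its last peak reached exactly to the 3′ end. In the 3′ group 10 peaks lay within 5652 bases, of which 3036 (53.7%) were in a peak. A 5′ group of 3 peaks lay at 23533373 to 23535319. The strongest peak (23525849 to 23526179, 331 bases) was inside the 3′ group and not at the end of the gene. The order of chromosomes begins anew near the end of the list, and the 745 peaks of 306 genes from there on are called the second part. It gave 12 of the 13 ZFHX2 peaks, and in the first part alone ZFHX2 had 1. The peak in the first part (23521060 to 23521848, blocks of 121 and 278 bases) overlapped the last peak of the second part, and merging them left 12. What sets the second part apart is not stated in the sources used here. All 13 peaks also lay inside the RefSeq span of THTPA, a plus-strand gene with no listed peak.

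HIVEP3 (ENSG00000127124, chromosome 1, 41506365 to 42035934) combined strong 3′ peaks with a row of weak ones. Near the 3′ end, 3 peaks at 41510261 to 41518439 with gaps of 89 bases covered 91.0% of their run, once introns inside peaks were left out. Their scores were 6.3e-50, 4.5e-05 and 1.3e-35. A second run of 8 peaks lay at 41579934 to 41585208, where 25.1% of 5275 bases were in peaks and scores ranged from 4.2e-08 to 0.0023. A single peak of 630 bases (41847688 to 41848317, score 6.8e-07) lay 262479 bases upstream.

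HIVEP2 (ENSG00000010818, chromosome 6, 142751469 to 142945733) had a similar order on a smaller scale. Its strongest peak (142752935 to 142753594, 660 bases) lay 1466 bases from the 3′ end, the next (142760092 to 142760391, score 1e-40) 8623 bases from it. A run of 4 peaks at 142770189 to 142774858 covered 22.5% of 4670 bases. In both HIVEP genes the strongest peak was thus the one nearest the 3′ end, and most of the others lay in 1 sparse run upstream.

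NRDE2 (ENSG00000119720, chromosome 14, 90267860 to 90331941) had its strongest peaks in the middle of the gene. ZC3H4 also had strong peaks away from its 3′ end, at 22.9% (1e-115) and 49.7% (1e-101) of its span. The strongest peak of NRDE2 (90288406 to 90289095, 690 bases) was 67.4% along the gene span. A second NRDE2 peak (90303980 to 90304553, blocks of 47 and 403 bases, score 1.3e-53) was 43.2% along it. Towards the 3′ end, 8 peaks of 91 to 301 bases covered 14.8% of a run of 10376 bases. Of these 8, 1 reached the median score (2.2e-08) and the weakest was at 0.0039. The last 5 peaks lay inside the span of PSMC1, a proteasome ATPase gene on the plus strand, and 4 of them shared 75 to 270 bases with PSMC1 peaks. The scores for NRDE2 and PSMC1 were 4.5e-05 and 4.5e-05, 0.0039 and 0.00085, 2.2e-05 and 1.7e-05, and 1.6e-05 and 5.6e-06, respectively. Without these 4, NRDE2 had 9 peaks and the same strongest score.

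Over the 7 minus-strand genes 7 of 80 peaks (8.75%) shared bases with a plus-strand peak, all of them in ZFHX3 and NRDE2, against 7.07% of all minus-strand peaks. The part of these overlaps in the counts was not tested beyond leaving them out.

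**Figure D2:**
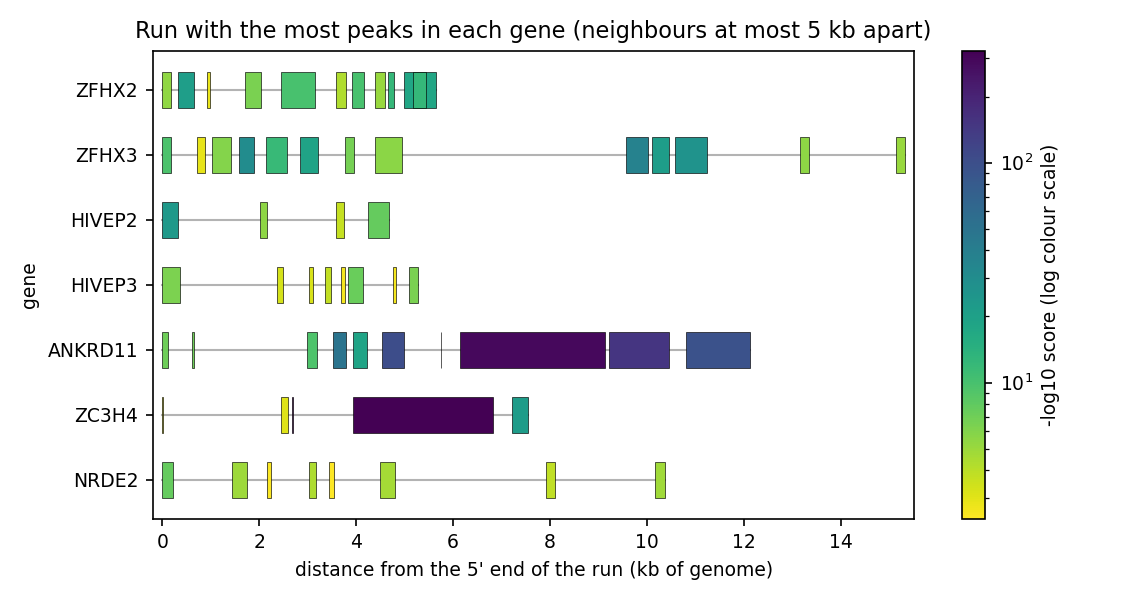
Peaks in the run with the most peaks of each gene, drawn as blocks from the 5′ end (left) in kb of genome. Colour gives the −log10 score on a log scale, with the score of 0 in ZC3H4 drawn at 323. Of the blocks drawn, the longest lie in ANKRD11 (2992 bases) and ZC3H4 (2905 bases). No block drawn for ZFHX2, ZFHX3, HIVEP3 or NRDE2 is longer than 690 bases. HIVEP3 has longer blocks, of 832 and 720 bases, in its 3′ run, which is not drawn.

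To describe spacing, neighbouring peaks of 1 gene whose facing ends were at most 5000 bases apart were called close neighbours. There were 58 such pairs in the 7 genes. The median gap was 373.5 bases, with quartiles of 149 and 748.75 bases. Among all 4486 pairs of minus-strand genes with at least 3 peaks, these 7 genes included, the median was 329 bases, with quartiles of 149 and 1024.75 bases. Gaps under 500 bases made up 58.6% of pairs in the 7 genes and 59.9% in all. The median gap and this share were thus near those of all minus-strand genes.

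Gaps varied among the genes. The median was 89 bases in ZC3H4 (3 pairs), 239 bases in both ZFHX2 (11 pairs) and HIVEP3 (9 pairs), and 329 bases in ANKRD11 (9 pairs). ZFHX3 (14 pairs) had a median of 479 bases, NRDE2 (9 pairs) 959 bases and HIVEP2 (3 pairs) 1435 bases. Gene medians were compared over the 1916 minus-strand genes with at least 3 peaks and a close pair. Of these, 8.77% had a median at or under that of ZC3H4 and 81.2% at or under that of HIVEP2. Gaps ran from 0 to 748 bases in ZFHX2 and from 89 to 4615 bases in ZFHX3, whereas the ranges of ZC3H4 (59 to 388 bases) and HIVEP2 (508 to 1675 bases) did not overlap. Peak borders were also placed in steps, since 58.6% of the 58 gaps were within 1 base of a multiple of 30 bases, against 39.6% of all pairs. Gaps can hold introns that no peak crosses, and those were not removed.

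**Figure D3:**
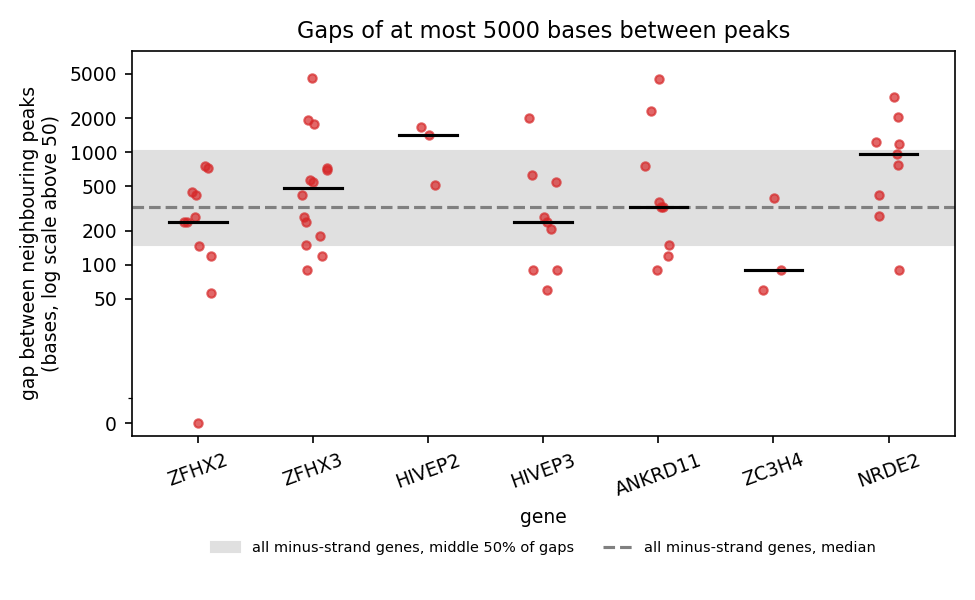
Gaps between neighbouring peaks at most 5000 bases apart (bases, log scale above 50) for each gene, 1 point per pair, with a black line at the median. The grey band and dashed line give the quartiles and median over all minus-strand genes with at least 3 peaks. Medians of ZFHX2, ZFHX3, HIVEP3, ANKRD11 and NRDE2 fall in the band, ZC3H4 lies below it and HIVEP2 above. The band is over single gaps and not over medians of genes.

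Runs of at least 3 close neighbours numbered 12 in these genes and held 69 of their peaks. Over all minus-strand genes there were 1336 such runs, with a median of 3 peaks and 41.3% of bases in peaks, where introns inside peaks are left out and bases shared by peaks count once. Runs with at least 8 peaks were 27 (2.02%), and 5 of these were in the genes described. The ZFHX3 run of 13 peaks was equalled or exceeded by 3 runs including itself, and the ZFHX2 run of 10 peaks by 8. A run of 8 peaks needs a gene with at least 8, which 61 minus-strand genes (0.921%) had. The number and ranks of long runs thus follow in part from how the genes were chosen. The ZFHX2 run came mostly from the second part of the list. The NRDE2 run holds the 4 peaks shared with PSMC1, and the ZFHX3 run the 3 shared with ZFHX3-AS1. Counts and ranks of runs were not computed without these peaks. The 5 long runs differed in how full they were, at 61.4% in ANKRD11, 55.8% in ZFHX2, 28.9% in ZFHX3, 25.1% in HIVEP3 and 14.8% in NRDE2.

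Along the gene, 74 of the 80 minus-strand peaks (92.5%) lay past the midpoint of the RefSeq span, against 70.1% of 11537 peaks of minus-strand protein-coding genes. In the last 10% lay 38 peaks (47.5%), against 37.8%. The spans include introns and the most distant start, and that of ZFHX3 is 1109046 bases long, so that its 13 clustered peaks all count as the last 10%. Peaks within 300 bases of the 3′ end were listed in ZFHX2, ZFHX3, ANKRD11, ZC3H4 and NRDE2. The strongest peak lay in the last 10% in ZFHX3, ZFHX4, HIVEP2, HIVEP3, ANKRD11 and ZC3H4, and before it in ZFHX2 (85.3% along the span) and NRDE2. Which peaks lie in coding exons or UTRs was not analysed here.

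**Figure D4:**
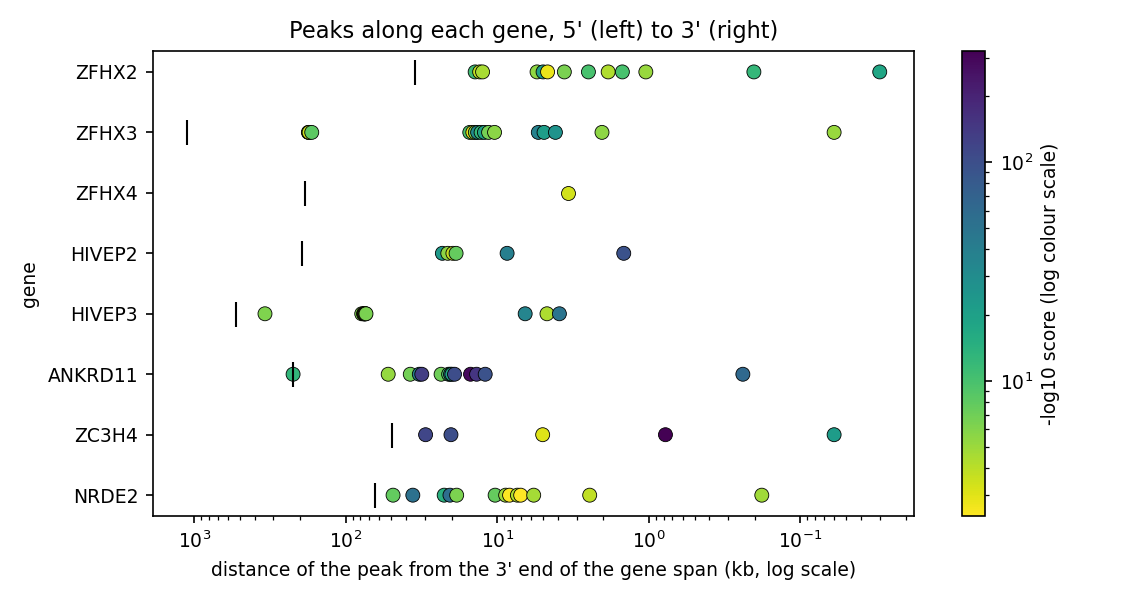
Distance of each peak from the 3′ end of its gene (kb, log scale), with the 5′ end to the left and colour giving the −log10 score on a log scale. The vertical mark is the 5′ end of the RefSeq span, and distances under 30 bases are drawn at 30 bases. Groups of peaks stand far from each other in ZFHX3 and HIVEP3, and the first peak of ANKRD11 sits on its 5′ mark.

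Few genes had the same number of peaks on the same strand. PCLO and FAT1 also had 17 peaks. PCLO, a presynaptic scaffold gene, was nearest to ZFHX3 in peak bases (4903 against 5446), with a strongest score of 5e-15 and a median gap of 224 bases. FAT1, a protocadherin gene, had 6945 peak bases and a strongest score of 1e-233. ZFHX2 and NRDE2, with 13 peaks each, had 4274 and 3251 peak bases, 278 of those of ZFHX2 being counted in both of its overlapping peaks. No other minus-strand gene had 14 peaks, as ANKRD11 did. Equal counts thus went with strongest scores that were far apart.

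Relatives and partners of these genes gave a wider setting. Of 24 such genes, 23 had a listed peak, 12 on the minus and 11 on the plus strand, against 40.8% of RefSeq protein-coding genes. The list was chosen with earlier results known and some of its genes are not counted, so nothing is read from this share. The exception was HDAC3, the histone deacetylase that ANKRD11 recruits. The 12 minus-strand genes had a median of 4 peaks and 4 of them had at least 5, against 7.55% of the strand. The 11 plus-strand genes had a median of 2, and TSHZ1 was the one with 5, against 2.25% of the strand. A peak that reached the median score was found in 11 of the 12 (70.7% of minus-strand genes) and in 4 of the 11 (42.1% of plus-strand genes).

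Among 11 other zinc finger and homeodomain genes, TSHZ3, a teashirt factor, had 9 peaks (strongest score 2e-45), ZHX3 had 6 (5e-96) and ZHX1 had 5 (1e-229). ADNP, a homeodomain factor of the ChAHP chromatin complex, had 4 (1e-296). ZEB2 and ZEB1, repressors that drive epithelial-mesenchymal transition, had 4 (1e-107) and 3 (1e-116). ZEB1 lies on the plus strand, and 1 of its 3 peaks shared bases with a minus-strand peak. On the plus strand ZHX2, ADNP2, ZNF462 and TSHZ2 had 2 each, with strongest scores from 2.8e-05 to 3.4e-08.

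Around ANKRD11, its relative ANKRD12 had 2 weak peaks of 152 bases in all (strongest score 0.0032). The corepressor gene NCOR1 had 4 peaks (1e-181). Around ZC3H4, WDR82 had 2 peaks with the stronger listed at 0, and SRRT, which links the cap-binding complex to RNA decay, had 3 (1e-134). ZC3H8 (5e-15), ZC3H6 (4.6e-06) and PPP1R10 (0.0017) had 1 each. Around NRDE2, ZFC3H1, a subunit of the PAXT decay complex, had 6 peaks (4e-88), a count reached by 3.91% of minus-strand genes. The helicase MTREX, on the plus strand, had 2 weak ones (0.00017), a count reached by 36.6% of plus-strand genes. Of the NEXT complex, ZCCHC8 had 1 peak of 1107 bases (1e-172) and RBM7 had 2 (3.2e-29). The exosome nuclease EXOSC10 had 1 (2e-19). ANKRD12, SRRT, ZC3H6, MTREX and RBM7 lie on the plus strand and the other relatives and partners in this paragraph on the minus strand. In MTREX and RBM7, 1 peak each shared bases with a minus-strand peak.

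**Figure D5:**
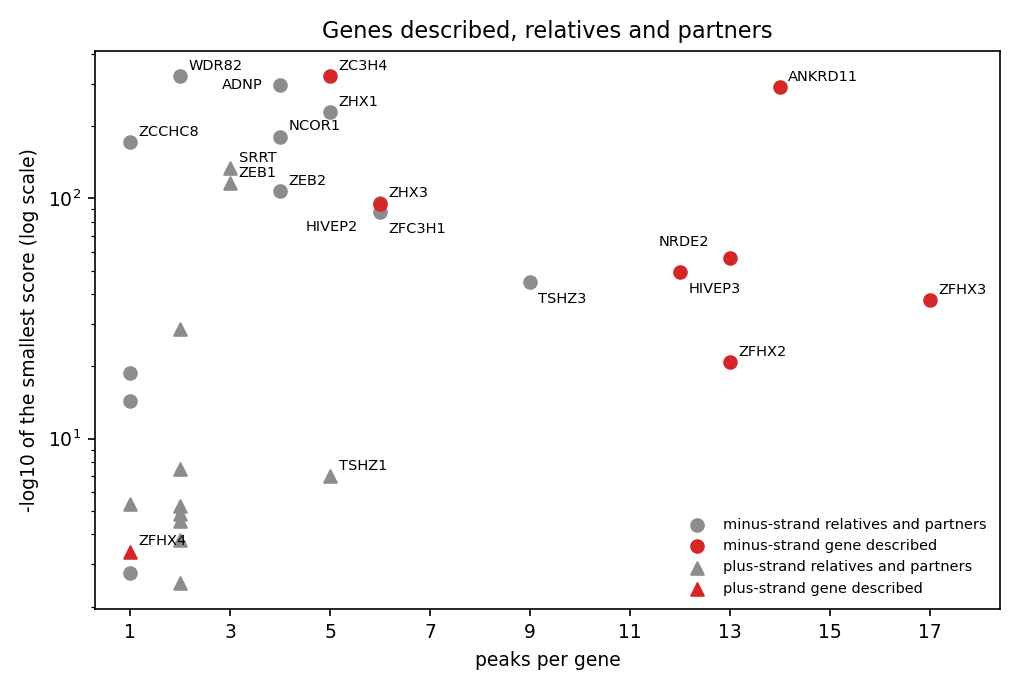
Peaks per gene against the −log10 of the smallest score (log scale, scores of 0 drawn at 323) for the 8 genes described (red) and 23 relatives and partners (grey), with circles for minus-strand and triangles for plus-strand genes. TSHZ3 with 9 peaks comes nearest to the red genes with 12 to 17 peaks.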

How the data were processed

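The study aligned m6A-seq reads with STAR to the transcriptome of GENCODE v33 (build hg38 per the labels) and called peaks with exomePeak, keeping those past a fold enrichment and an FDR threshold. Libraries were made with a kit that keeps strand and were grouped by title. The score deposited with each peak was taken for a p-value from exomePeak, although it could be its FDR. A peak given as several blocks runs over several exons.

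Gene IDs were matched to symbols without version (10103 of 10140). Spans and start windows came from RefSeq on GRCh38.p14. Start windows were the sole genomic sequence read, and an exon map and protein sequences were not used here. The selection asked for spacing over long coding exons. In its place, neighbouring peaks at most 5000 bases apart were taken. Comparisons were made with genes of the same strand, because the list is unequal between strands. Gaps, runs and overlaps (minimum of 1 base) were computed in Python 3.11.15 with pandas 2.3.3 and tested on simulated data.

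The genes and the list of relatives and partners were chosen with earlier results of these data known. The named genes were these, and up to 5 same-strand genes with the peak count of each of the 3 genes with the most peaks. ZFHX2 and NRDE2 tied and both were kept. Some genes that this rule or the list of partners would name are not reported here, and counts over that list leave them out. The 500-base limit for stretches was chosen after seeing the values. Alternatives were peaks at or under the list median, merged peaks, the first part of the list, other comparison genes and other measures of spacing.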

Additional observations from a re-analysis of the deposited data

How the results depend on the processing

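The 9 genes held 81 peaks, and 43 when restricted to those that reached the list's median score. In that setting 2 of them, in place of 5, were among the 1% of same-strand genes with the most peaks. The median spacing was 865 bases between midpoints, which includes the peaks themselves, in place of a gap of about 374 bases. The other 14 of 17 alternatives for totals, ranks, spacing and strongest score stayed within 1.5 times. For ZFHX2 the first part of the list left 1 of 13 peaks, because 12 are in the second part. With limits of 250 and 1000 bases, chosen after seeing the data, the longest ANKRD11 stretch was 4312 and 5992 bases, and the one of NRDE2 rose from 879 to 3360 bases at 1000. No paired analysis was possible because each peak has a single pooled score, and leaving out a replicate was not possible for the same reason. Unknown depth limits what a missing or weak peak shows.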
